A study of Mus musculus with 57 samples.

Results

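The comparison described here set Sox1-FoxA2+ against Sox1+FoxA2- cells sorted by FACS after 4 days of differentiation (D4) of mouse embryonic stem cells (ESCs). The members were chosen by their labels alone, as the directly sorted D4 libraries that carry 1 of the 2 markers, with 3 libraries of each population. They are 6 of the 57 bulk RNA-seq libraries of the series, which holds 39 sorted and 18 progeny libraries. All of them came from the Sox1-EGFP/FoxA2mCherry line, in which EGFP replaces 1 Sox1 allele and mCherry was fused to the end of the FoxA2 gene by CRISPR-Cas9. The line is 1 clone, picked because its mCherry signal followed FOXA2 antibody staining most closely, and its parent carried the Sox1-EGFP reporter. Cells of every group were seeded in SerumLIF and moved to N2B27 medium with 1 uM retinoic acid (RA), renewed every 2 days, and equal numbers of cells were taken per library. The gates were set against wild-type R1 cells without reporters. Sox1-FoxA2- and Sox1+FoxA2+ cells of D4 entered the same fit, and the same 2 gates at D2, D6 and in progeny served for comparison. The progeny had been sorted at D2 and replated in serum medium with 1 uM RA until D4 or D6.

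FOXA2 is a forkhead transcription factor of endoderm, and SOX1 is an HMG-box factor that marks early neuroectoderm. Primitive endoderm gives rise to visceral and parietal endoderm. Its cells express GATA factors and lay down a basement membrane, a sheet of laminin, type IV collagen, nidogen and perlecan, which parietal endoderm makes in large amounts as Reichert's membrane. Visceral endoderm takes up maternal proteins through the megalin and cubilin receptors and their adaptor DAB2. RA drives ESCs towards neuroectoderm and also into extra-embryonic endoderm. The comparison asks how far cells of one culture that carry either marker already differ at D4.

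The 6 libraries held from 29665183 to 56755617 counts on genes and from 17421 to 23123 genes with at least 1 count, and replicate 2 had the fewest genes in both populations. Of 55450 genes, 22946 passed the filter on low counts and were tested with edgeR's quasi-likelihood test in a fit of all 12 D4 libraries. Foxa2 served as a check of the gate and not as a finding. Its normalized counts were 2164, 2716 and 2267 in Sox1-FoxA2+ replicates 1, 2 and 3, and 3.09, 55.8 and 251 in the Sox1+FoxA2- replicates, so that the 3 libraries of the FoxA2+ gate lay above the others and Sox1+FoxA2- replicate 3 held the most Foxa2 of its group. The difference did not pass the test (log2 fold change of 4.75 ± 1.95 (SE), adjusted p = 0.881, 0.149 with the replicate block), and it passed DESeq2's Wald test (adjusted p = 0.0374). The Sox1 gate could not be checked from its own gene. Sox1 lies wholly within the span of the longer transcript Sox1ot, and it had 0 counts in all 57 libraries, as did Sox2. Of 1383 protein-coding genes that lie wholly within other genes, 1378 had 0 counts in every library, against 470 of the 20568 other protein-coding genes, so that a count of 0 for such a gene tells nothing of its expression. In bulk samples, fewer cells of a type and less RNA per cell cannot be told apart.

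In all, 47 genes were higher in Sox1-FoxA2+ cells (0.205% of those tested) and 14 were lower (0.0610%), at an adjusted p under 0.05. All 61 are protein coding, lie on 19 chromosomes, and had 3 and 3 libraries that did not overlap. Over all genes tested, the 3 Sox1-FoxA2+ libraries lay above the 3 Sox1+FoxA2- libraries for 6.14% and below them for 5.31%. The smallest difference among the called genes was 1.83 on the log2 scale. The median log2 fold change of all genes tested was -0.10, and 10379 genes were positive and 12502 negative. With the replicate number as a block, since same-numbered libraries of the 2 populations deviated together, 144 genes were called (0.628%), 118 higher and 26 lower, among them 58 of the 61. The 3 that lost their call were Wnt8a (adjusted p = 0.0517), Cdh2 (adjusted p = 0.0528) and Ptn (adjusted p = 0.0886). The fits that left out 1 library called 28 genes at fewest (Sox1-FoxA2+ replicate 1 left out) and 65 at most (Sox1+FoxA2- replicate 1 left out). They filtered the genes anew and tested from 24949 to 25459, against 22946 in the full fit. A call lost in such a fit, here and below, thus need not mean reliance on that library. Calls numbered 36 when Sox1+FoxA2- replicate 2 was left out and 39 for Sox1-FoxA2+ replicate 3. Of the 61 genes, 21 were called in each of these 6 fits, and Tmem144, Stx3, Hs6st2 and Wnt8a in none. The replicates are biological replicates as the study gives them. The p-values rest on the spread between replicates within all D4 populations of the fit, not within the 2 compared alone. An uncalled gene thus need not vary within the 2 populations compared.

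Basement membrane genes were the most abundant of the genes that were higher in Sox1-FoxA2+ cells. The first laminin of the embryo is a trimer of an alpha 1, a beta 1 and a gamma 1 chain, and the genes of all 3 chains were called. Library values below are normalized counts in the order of replicates 1, 2 and 3, Sox1-FoxA2+ first. Lama1, the alpha 1 chain (chr17:67697259-67822647, GRCm38), had 385741, 141849 and 288886 against 3578, 1540.2 and 1316 (log2 fold change of 6.97 ± 0.71 (SE), adjusted p = 2.15e-04). Lamb1, the beta 1 chain (chr12:31265234-31329644), had 165151, 80661 and 137653 against 7406, 3740.0 and 3874 (log2 fold change of 4.68 ± 0.57 (SE), adjusted p = 3.53e-04). Lamc1, the gamma 1 chain (chr1:153218922-153332786), had 251649, 111016 and 216825 against 11289, 3405 and 7187 (log2 fold change of 4.75 ± 0.52 (SE), adjusted p = 9.72e-05). For each chain the lowest Sox1-FoxA2+ library, replicate 2, lay above the highest Sox1+FoxA2- library, replicate 1. Lamc1 kept its call whichever of the 6 libraries was left out. Lama1 lost its call without Sox1+FoxA2- replicate 2 (adjusted p = 0.0554) and Lamb1 without Sox1+FoxA2- replicate 2 (adjusted p = 0.0743). Other laminin chains of the list were tested and none was called.

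Type IV collagen is the other network of the sheet, built from alpha 1 and alpha 2 chains whose genes lie head to head on chromosome 8. Col4a2 (chr8:11312805-11449287) had 94123, 35926 and 72619 against 3368, 536 and 1048 (log2 fold change of 5.33 ± 0.84 (SE), adjusted p = 0.0286). Col4a1 had 294435, 111248 and 200018 against 6664, 412 and 1865 and was not called (log2 fold change of 6.05 ± 1.27, adjusted p = 0.183, 0.00806 with the block). Both chains were high in all 3 Sox1-FoxA2+ libraries, and Sox1+FoxA2- replicate 1 held the most of both in its group. Sparc, a collagen-binding glycoprotein of basement membranes (chr11:55394500-55423183), had 142602, 78086 and 108185 against 10881, 3665 and 3309.8 (log2 fold change of 4.18 ± 0.50 (SE), adjusted p = 1.59e-04), with no overlap. Sparc kept its call whichever of the 6 libraries was left out. Col4a2 kept its call only without Sox1+FoxA2- replicate 1 (adjusted p from 0.0855 to 0.244 otherwise).

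Of the 29 basement membrane genes tested, 5 were called higher and none lower. The fold change was positive for 16 and negative for 13, with a median of 0.54. Libraries did not overlap for 9, all higher, against 6.14% of all genes tested that lay higher. The members given with values are all among the positive ones. A gene near 0 in one population passed the filter on low counts through the other, so counts over tested members here and below only describe them. With the block, Col4a1, Hspg2 and Nid2 were called as well, which made 8. Hspg2, perlecan, had 89695, 22112 and 32152 against 22237, 4264 and 5187 (log2 fold change of 2.15 ± 0.90, adjusted p = 0.881, 0.00286 with the block), and here Sox1-FoxA2+ replicate 2 lay below Sox1+FoxA2- replicate 1. Nid2, a nidogen that bridges laminin and collagen, had 10376, 5001 and 10437 against 3668, 1879 and 4115 (1.47 ± 0.50, adjusted p = 0.520, 0.0499 with the block), and its paralog Nid1 had 11529.9, 5165 and 10555 against 1798, 3.85 and 771 (3.40 ± 1.65, adjusted p = 0.881). The 29 genes together took 4.27%, 1.94% and 3.37% of all counts in the Sox1-FoxA2+ libraries, against 0.437%, 0.121% and 0.198% in the Sox1+FoxA2- libraries. In the 6 libraries of the other D4 populations the share lay between 0.101% and 0.374%. Lama1 alone made up 1.11%, 0.443% and 0.871% of the counts in Sox1-FoxA2+ cells, and at most 0.0114% in Sox1+FoxA2- cells. The plot of normalized counts by library shows the main genes of this and the following groups.

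**Figure D1:**
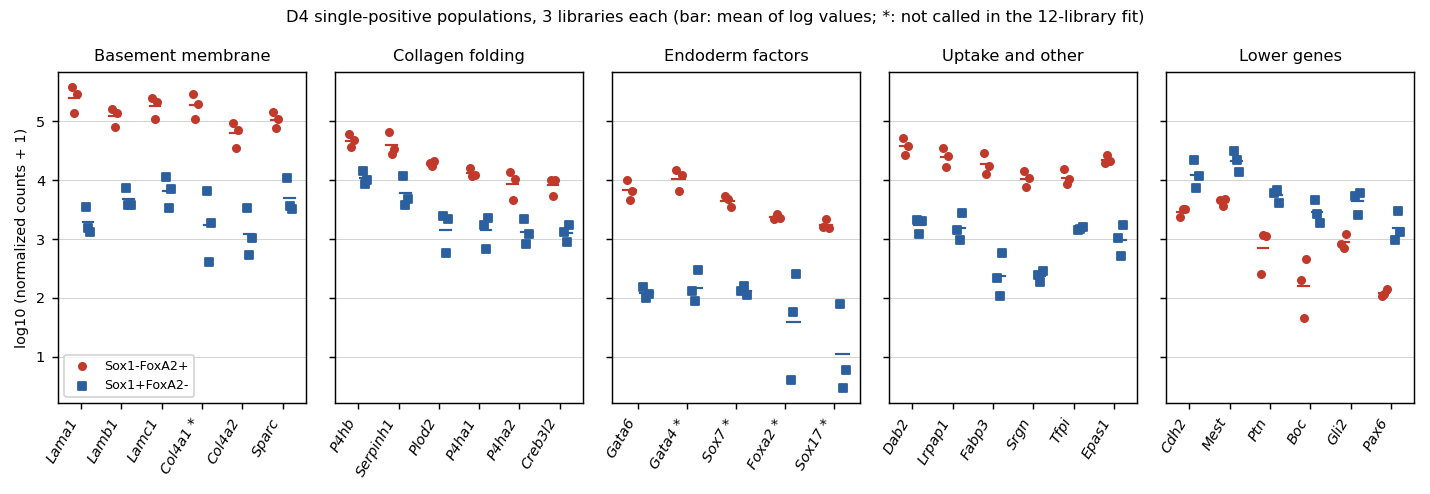
Vertical axis, log10 of normalized counts plus 1. Each point is 1 library of Sox1-FoxA2+ (red circles) or Sox1+FoxA2- cells (blue squares) at D4, bars are means of the log values of 3 libraries, and stars mark genes that were not called. The 3 red points lie above the 3 blue points for each gene of the first 4 panels and below them for each lower gene.

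Some of the enzymes and chaperones that fold collagen in the endoplasmic reticulum (ER) were higher as well. Prolyl 4-hydroxylase, whose hydroxyproline keeps the collagen helix stable, is a tetramer of alpha chains and the beta chain P4HB. P4ha1 had 16328, 11929 and 12145 against 1762, 688 and 2322 (log2 fold change of 3.17 ± 0.43 (SE), adjusted p = 3.12e-04). P4ha2 had 13786, 4633 and 10468 against 2239, 838 and 1208 (log2 fold change of 2.76 ± 0.55 (SE), adjusted p = 0.0328). P4hb had 60074, 36191 and 49235 against 14251, 8644 and 10136 (log2 fold change of 2.16 ± 0.37 (SE), adjusted p = 0.00359). The fold was smallest for P4hb, which was also the most abundant of the 3 genes in Sox1+FoxA2- cells. Plod2, a lysyl hydroxylase that prepares collagen for cross-linking, had 19337, 17299 and 21156 against 2454, 577 and 2169 (log2 fold change of 3.53 ± 0.46 (SE), adjusted p = 2.15e-04), and Sox1+FoxA2- replicate 2 was the lowest library. P4ha2 kept its call only without Sox1-FoxA2+ replicate 2 or Sox1+FoxA2- replicate 1 (adjusted p from 0.0770 to 0.263 otherwise). P4ha1, P4hb and Plod2 kept their call whichever library was left out.

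Serpinh1, the collagen chaperone HSP47, had 66375, 27712 and 34544 against 11858, 3835 and 4892 (log2 fold change of 2.64 ± 0.49 (SE), adjusted p = 0.0220). Creb3l2, a membrane-bound transcription factor of the secretory pathway, had 9985, 5471 and 9935 against 1296, 888 and 1709.8 (log2 fold change of 2.77 ± 0.41 (SE), adjusted p = 8.47e-04). Calr, the ER chaperone calreticulin, had 50992, 34972 and 36905 against 10246, 7697 and 7369 (log2 fold change of 2.31 ± 0.36 (SE), adjusted p = 0.00151). None of these genes overlapped between the populations, and Calr and Creb3l2 kept their call whichever library was left out. Serpinh1 lost its call without Sox1-FoxA2+ replicate 1 or Sox1+FoxA2- replicate 2 or 3 (adjusted p from 0.0835 to 0.154). Of the 30 genes of the list for collagen folding and secretion, to which Calr does not belong, all were tested, 6 were higher, none was lower and 26 were positive, with a median of 1.40. Sec24d, a coat protein of ER export vesicles, had 5428, 3660.4 and 4809 against 2107, 843 and 1157 and was called with the block but not without it (1.77 ± 0.45, adjusted p = 0.127, 0.0175 with the block). Ppib, a prolyl isomerase, had 5955, 4336 and 4611 against 2365, 2325 and 1990.5 (1.19 ± 0.42, adjusted p = 0.565). Mia3, the collagen export receptor TANGO1, had 6315, 5180.0 and 3564 against 4105, 2117 and 3068 with overlapping libraries (0.74 ± 0.40, adjusted p = 0.888). The list took 0.691%, 0.449% and 0.563% of counts in Sox1-FoxA2+ libraries, against 0.202%, 0.0954% and 0.119% in Sox1+FoxA2- libraries.

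Upstream sequences were read for the 35 of 47 higher and 10 of 14 lower genes that had a promoter in the RefSeq table (GRCm38.p6). Shown are the 250 bases before the RefSeq start of the hydroxylase subunit P4hb, of the chaperone Serpinh1 and of Dab2, an endocytic adaptor described below, because these genes were abundant among the higher genes and their windows lie outside the annotated gene spans, save for 1 base of Dab2. Capitals mark a match to the GATA factor motif, searched as AGATAA or TGATAA on both strands. They are given 5′ to 3′ on the gene's strand, which is - for P4hb (chr11:120573254-120573503) and Serpinh1 (chr7:99353240-99353489) and + for Dab2 (chr15:6299539-6299788, the first of its 2 listed starts).
P4hb: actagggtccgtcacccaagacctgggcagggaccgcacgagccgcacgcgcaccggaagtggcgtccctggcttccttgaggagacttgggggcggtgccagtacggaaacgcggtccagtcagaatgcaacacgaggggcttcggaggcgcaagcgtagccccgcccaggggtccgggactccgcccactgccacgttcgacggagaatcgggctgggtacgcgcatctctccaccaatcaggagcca
Serpinh1: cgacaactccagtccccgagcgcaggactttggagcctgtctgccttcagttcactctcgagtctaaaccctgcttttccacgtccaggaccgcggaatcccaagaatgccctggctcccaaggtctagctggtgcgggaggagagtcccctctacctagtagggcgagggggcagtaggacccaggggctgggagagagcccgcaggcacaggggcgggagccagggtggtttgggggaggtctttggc
Dab2: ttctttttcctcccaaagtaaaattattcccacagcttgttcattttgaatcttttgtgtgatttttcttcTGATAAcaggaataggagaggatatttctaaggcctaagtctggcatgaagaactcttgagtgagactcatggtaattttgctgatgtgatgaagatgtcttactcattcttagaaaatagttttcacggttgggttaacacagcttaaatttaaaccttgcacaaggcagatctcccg
The window of Dab2 holds TGATAA, with its first base 179 bases before the start, while the window of its other listed start and those of P4hb and Serpinh1 hold neither form. In windows of 300 bases, from 250 before to 50 after the start, 5 of the 35 higher genes had a match (14.3%), namely Dab2, Retreg1, Slc16a1, Tfpi and Tmem144. The share was 16.5% over the 15326 tested genes with a promoter and 21% over all 27025 genes of the table. Among the 10 lower genes 3 had a match, Lin28b, Pax6 and Sp110. With AGATAA alone the shares were 8.57% of the higher genes, 10.4% of tested genes and 12.7% of all. The forkhead motif TGTTTAC was in no window of the higher or lower genes, against 3.63% of tested genes. A match describes the letters of the window only.

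Among transcription factors of endoderm, Gata6 was called. GATA6 is a zinc-finger factor that specifies primitive endoderm. Gata6 had 10107, 4678 and 6504 against 154, 100 and 115 (log2 fold change of 5.87 ± 0.72 (SE), adjusted p = 2.15e-04), and it kept its call whichever of the 6 libraries was left out. All 17 of the 20 listed factors that could be tested were positive, with a median of 3.72, and 12 had no overlap between libraries, but 1 was called. Foxa2, whose reporter set the gate, is among the 17 and among the 12. Over all genes tested, 6.14% lay higher without overlap. Gata4, the partner of GATA6 in extra-embryonic endoderm, had 14783, 6476 and 12158 against 128, 86.5 and 295 (6.15 ± 2.07, adjusted p = 0.766). Sox7, an SRY-box factor of primitive and parietal endoderm, had 5413, 4788 and 3485 against 128, 156 and 109.8 (5.15 ± 1.67, adjusted p = 0.675). Libraries of these 2 genes did not overlap, and neither was called. Sox17 had 1584, 2164 and 1535 against 78.7, 1.92 and 4.88 (5.88 ± 2.65, adjusted p = 0.881), and Klf6 had 5496, 4367 and 2775 against 3315, 2909 and 2285 with overlapping libraries (0.60 ± 0.43, adjusted p = 1.00). With the block, Gata6 was again the 1 called member, and the median of the list was 5.11.

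Dab2 was the called member of the list for endocytic receptors of visceral endoderm, and 4 higher genes outside the lists, whose products are known from endocytosis, vesicle acidification or the lysosome, are given beside it. Dab2, the clathrin adaptor of megalin (chr15:6299788-6440712), had 52588, 26436 and 38636 against 2147, 1223 and 2066 (log2 fold change of 4.48 ± 0.47 (SE), adjusted p = 1.16e-05). Lrpap1, the ER chaperone RAP that escorts megalin and related receptors, had 36089, 17123 and 26138 against 1443, 952 and 2798 (log2 fold change of 4.04 ± 0.55 (SE), adjusted p = 8.47e-04). Myo6, a myosin that moves endocytic vesicles inward, had 7851, 4719 and 6254 against 481, 567 and 1211 (log2 fold change of 3.17 ± 0.47 (SE), adjusted p = 8.47e-04). These 3 genes were high in all 3 Sox1-FoxA2+ libraries and kept their call whichever library was left out. Atp6v0a1, a subunit of the proton pump that acidifies vesicles, had 18962, 13310.1 and 17829.8 against 2658, 2507 and 2431 (log2 fold change of 2.75 ± 0.44 (SE), adjusted p = 0.00201), and it also kept its call in each of those fits. Lamp1, a glycoprotein of the lysosomal membrane, had 9762, 6976 and 7000.3 against 2756, 1561 and 2626 (log2 fold change of 1.83 ± 0.39 (SE), adjusted p = 0.0366), and 20.5% of its span overlaps other genes. Lamp1 kept its call only without Sox1+FoxA2- replicate 1 (adjusted p from 0.0554 to 0.308 otherwise).

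The receptors that DAB2 serves were not called. Lrp2, megalin, had 98265, 31609.7 and 54277 against 25639.5, 9467 and 10169 (log2 fold change of 2.01 ± 0.47 (SE), adjusted p = 0.0888, 0.0183 with the replicate block). Cubn, cubilin, had 93424, 13838 and 51688 against 202, 354 and 1116 (6.72 ± 1.42, adjusted p = 0.195), with no overlap and with replicate 1 the highest of the Sox1-FoxA2+ libraries. Lgmn, a lysosomal protease, had 17119, 6509.6 and 4882 against 796, 406 and 58.6 (4.45 ± 1.06, adjusted p = 0.230, 0.0313 with the block). Cd63, a tetraspanin of late endosomes, had 5304, 3599.5 and 3743 against 1289, 1092 and 1240.0 (1.85 ± 0.41, adjusted p = 0.0526, 0.0110 with the block). Over the 13 genes of the visceral endoderm endocytic list, all tested, 1 was called and 12 were positive, with a median of 2.01 (2.70 without Sox1+FoxA2- replicate 1). With the block 4 were called. Of 24 secreted carrier genes of visceral endoderm 16 could be tested, none was called in either direction, and 14 were positive with a median of 1.60. Of these 16, 6 lay higher without overlap, against 6.14% of all genes tested. Ttr, transthyretin, and Afp, alpha-fetoprotein, which mark mature visceral endoderm, had few counts, with 98.2, 158 and 41.3 against 0, 0 and 41.5 for Ttr and 40.8, 46.2 and 0 against 0, 0 and 36.6 for Afp.

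Parietal endoderm products were represented by Srgn, Tfpi and Nostrin. Srgn, the proteoglycan serglycin of secretory granules, had 14442, 7659 and 10815 against 245, 188 and 288 (log2 fold change of 5.57 ± 0.73 (SE), adjusted p = 9.39e-04). Tfpi, an inhibitor of the tissue factor pathway of coagulation, had 15463, 8609.8 and 10402 against 1412, 1496 and 1604 (log2 fold change of 2.98 ± 0.40 (SE), adjusted p = 2.62e-04). Nostrin, a membrane-bending adaptor of nitric oxide synthase, had 3522, 1222 and 3412 against 330.3, 190.4 and 371 (log2 fold change of 3.24 ± 0.65 (SE), adjusted p = 0.0265). The 3 genes did not overlap between populations, and Tfpi varied least within Sox1+FoxA2- cells. Tfpi kept its call whichever of the 6 libraries was left out. Srgn lost its call without Sox1+FoxA2- replicate 2 (adjusted p = 0.0913). Nostrin kept its call only without Sox1-FoxA2+ replicate 2 (adjusted p from 0.0507 to 0.372 otherwise). Of the 28 genes of the list, all tested, 3 were higher, none was lower and 21 were positive, with a median of 1.67.

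Among uncalled members of that list, Ctsl, the lysosomal protease cathepsin L, had 32897, 11167 and 15350.1 against 3313, 400.0 and 2079.6 and was called with the block (3.39 ± 0.76, adjusted p = 0.146, 5.52e-04 with the block). Pdgfra, the PDGF receptor of primitive endoderm, had 12404, 5561 and 10496 against 119, 1.92 and 166 (6.73 ± 1.95, adjusted p = 0.522). Pth1r, the receptor for parathyroid hormone-related protein, had 7628, 5167 and 5128 against 268, 965 and 225 (3.62 ± 1.14, adjusted p = 0.573). Fst, the activin inhibitor follistatin, had 5569, 8459 and 5345 against 1053, 598 and 2.44 (3.49 ± 1.56, adjusted p = 0.881). None of these 4 genes overlapped between populations, and Pdgfra and Fst were near 0 in 1 Sox1+FoxA2- library, replicate 2 and replicate 3 respectively. Over the 28 members, 14 lay higher without overlap, against 6.14% of all genes tested. Another 7 members were negative, and none of those is given here.

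Of the 47 higher genes 29 belonged to none of the gene lists, Lrpap1, Myo6, Atp6v0a1, Lamp1 and Calr above among them. Fabp3, a carrier of fatty acids in the cytoplasm, had 28833, 12781 and 17691 against 218, 108 and 569 (log2 fold change of 6.19 ± 0.56 (SE), adjusted p = 1.47e-06), the smallest adjusted p of the comparison. Epas1, the hypoxia-inducible factor HIF-2 alpha, had 19980.0, 26815 and 20887 against 1037, 519 and 1721 (log2 fold change of 4.48 ± 0.62 (SE), adjusted p = 0.00151). Ankrd33b, an ankyrin repeat gene, had 7903, 3757 and 4336 against 154, 396 and 376 (log2 fold change of 4.19 ± 0.60 (SE), adjusted p = 5.01e-04). These 3 genes, high in each Sox1-FoxA2+ library, kept their call whichever library was left out. Among 20 genes of glycolysis and the hypoxia response, P4ha1 was called and 14 were positive with a median of 0.47, and 2 were called with the block. Prkaa2, a catalytic subunit of the energy sensor AMPK, had 6183, 6591 and 4654 against 965, 138 and 542 (log2 fold change of 3.44 ± 0.56 (SE), adjusted p = 0.00249). Insig1, which holds back sterol synthesis, belongs to the list for lipid and cholesterol synthesis. Its values were 9024, 11821 and 7942 against 2750.2, 2361 and 1755 (log2 fold change of 2.10 ± 0.41 (SE), adjusted p = 0.0194). Prkaa2 kept its call whichever of the 6 libraries was left out. Insig1 lost its call without Sox1-FoxA2+ replicate 2 or Sox1+FoxA2- replicate 3 (adjusted p from 0.0685 to 0.0814). Slc16a1, a carrier of lactate and pyruvate, had 8911, 7770.5 and 6534 against 2992, 599.9 and 1600.0 (log2 fold change of 2.19 ± 0.45 (SE), adjusted p = 0.0320), and 21.6% of its span overlaps other genes. Slc16a1 kept its call only without Sox1-FoxA2+ replicate 3 or Sox1+FoxA2- replicate 1 (adjusted p from 0.0501 to 0.124 otherwise).

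Regulators of transcription and signalling were among the higher genes too. Tead4, the DNA-binding partner of YAP, had 5036, 2656 and 4340.4 against 233, 424 and 901 (log2 fold change of 3.07 ± 0.49 (SE), adjusted p = 0.00201). Dusp9, a phosphatase that switches off MAP kinases, had 8312, 6023 and 5218 against 847, 1142 and 915 (log2 fold change of 2.80 ± 0.46 (SE), adjusted p = 0.00261). Arid5b, an AT-rich DNA-binding factor, had 15164, 6262 and 13169 against 2420.0, 1511 and 2581 (log2 fold change of 2.46 ± 0.42 (SE), adjusted p = 0.00406). All of them kept their call whichever library was left out. Klf5, a Krüppel-like factor counted in the pluripotency list, had 9543, 5476 and 6526 against 1357, 1329 and 1621 (log2 fold change of 2.38 ± 0.51 (SE), adjusted p = 0.0407). Smarca2, an ATPase of the SWI/SNF chromatin remodeller, had 2781, 4309 and 3718 against 431, 606 and 1340.0 (log2 fold change of 2.32 ± 0.49 (SE), adjusted p = 0.0351), and Nrg2, a neuregulin ligand of ErbB receptors, had 7799, 2606 and 7212 against 388, 535 and 1186 (log2 fold change of 3.17 ± 0.62 (SE), adjusted p = 0.0265). Klf5 kept its call only without Sox1-FoxA2+ replicate 2 (adjusted p from 0.0580 to 0.211 otherwise), Smarca2 only without Sox1+FoxA2- replicate 3 (adjusted p from 0.0899 to 0.164 otherwise) and Nrg2 only without Sox1-FoxA2+ replicate 2 or Sox1+FoxA2- replicate 3 (adjusted p from 0.0620 to 0.247 otherwise).

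Genes of membranes and adhesion followed. Atp1b1, the beta subunit of the sodium pump, had 4628, 5323 and 5683 against 364, 321 and 361 (log2 fold change of 3.95 ± 0.73 (SE), adjusted p = 0.0200), with the 6 libraries in 2 tight groups. Stx3, a syntaxin of apical membranes, had 3177, 3304 and 2729.8 against 486, 367 and 427 (log2 fold change of 2.89 ± 0.61 (SE), adjusted p = 0.0366). Parvb, beta-parvin of focal adhesions, had 4598, 3385 and 3239 against 329, 281 and 643 (log2 fold change of 3.27 ± 0.67 (SE), adjusted p = 0.0313). None of the 3 overlapped between populations. Retreg1, a receptor for turnover of the ER, had 7030.2, 3806 and 5227 against 428, 604 and 852 (log2 fold change of 3.17 ± 0.56 (SE), adjusted p = 0.00677), and Rab3il1, an exchange factor of Rab proteins, had 2732, 1998 and 1783 against 30.9, 96.1 and 366 (log2 fold change of 3.92 ± 0.84 (SE), adjusted p = 0.0395). Atp1b1 lost its call without Sox1+FoxA2- replicate 1, 2 or 3 (adjusted p from 0.0921 to 0.194) and Retreg1 without Sox1-FoxA2+ replicate 1 (adjusted p = 0.0547). Parvb kept its call only without Sox1-FoxA2+ replicate 3 or Sox1+FoxA2- replicate 3 (adjusted p from 0.0501 to 0.192 otherwise) and Rab3il1 only without Sox1+FoxA2- replicate 3 (adjusted p from 0.0826 to 0.372 otherwise). Stx3 (adjusted p from 0.0623 to 0.188) lost its call whichever of the 6 libraries was left out.

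The other called genes above Sox1+FoxA2- cells were Fam129b (log2 fold change of 3.43), Tmem144 (3.85), Slc26a2 (2.54), Gdpd5 (2.48), Rffl (2.43), Rras2 (2.23), Gpx3 (2.16) and Ypel2 (2.15). SLC26A2 imports the sulfate used for proteoglycans, RRAS2 is a Ras-family GTPase, RFFL is a ubiquitin ligase and GPX3 a secreted peroxidase. Fam129b lost its call without Sox1+FoxA2- replicate 3 (adjusted p = 0.104) and Rffl without Sox1-FoxA2+ replicate 1 or 3 or Sox1+FoxA2- replicate 3 (adjusted p from 0.0686 to 0.0926). Gpx3 kept its call only without Sox1-FoxA2+ replicate 3 or Sox1+FoxA2- replicate 1 (adjusted p from 0.0855 to 0.218 otherwise), Rras2 only without Sox1-FoxA2+ replicate 2 or Sox1+FoxA2- replicate 1 (adjusted p from 0.0727 to 0.117 otherwise), Slc26a2 only without Sox1+FoxA2- replicate 1 (adjusted p from 0.0583 to 0.187 otherwise), Gdpd5 only without Sox1-FoxA2+ replicate 2 (adjusted p from 0.0507 to 0.441 otherwise) and Ypel2 only without Sox1+FoxA2- replicate 3 (adjusted p from 0.0501 to 0.651 otherwise). Tmem144 (adjusted p from 0.0528 to 0.853) lost its call whichever of the 6 libraries was left out.

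Genes that were lower in Sox1-FoxA2+ cells included neural factors. Pax6, a paired-box factor of the neural tube (chr2:105668900-105697364), had 106, 114 and 139.7 against 963, 2956 and 1318 (log2 fold change of -3.84 ± 0.78 (SE), adjusted p = 0.0286). Ptn, the growth factor pleiotrophin, had 250.1, 1180.3 and 1134 against 6047, 6969 and 4054 (log2 fold change of -2.72 ± 0.56 (SE), adjusted p = 0.0336, 0.0886 with the block). Cntfr, the alpha receptor for ciliary neurotrophic factor, had 582, 469.5 and 278 against 2564, 2765 and 2515 (log2 fold change of -2.51 ± 0.52 (SE), adjusted p = 0.0313). Each gene was lower in all 3 Sox1-FoxA2+ libraries than in any Sox1+FoxA2- library, and for Pax6 the Sox1+FoxA2- libraries themselves ranged widely, with replicate 2 the highest. Pax6 kept its call only without Sox1+FoxA2- replicate 1 or 3 (adjusted p from 0.0912 to 0.269 otherwise), Ptn only without Sox1-FoxA2+ replicate 2 or Sox1+FoxA2- replicate 3 (adjusted p from 0.0623 to 0.186 otherwise) and Cntfr only without Sox1+FoxA2- replicate 3 (adjusted p from 0.0949 to 0.189 otherwise). Of the 45 listed neural progenitor genes 38 could be tested, 2 were lower, none was higher and 36 were negative, with a median of -1.68. The list held 0.107%, 0.149% and 0.191% of the counts in Sox1-FoxA2+ libraries, against 0.377%, 0.346% and 0.217% in Sox1+FoxA2- libraries. In libraries of the other D4 populations the share lay between 0.182% and 0.273%, a range that holds replicate 3 of both single-positive populations.

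Of the 38 tested members, 8 lay lower without overlap, Pax6 and Ptn among them, against 5.31% of all genes tested. The abundant uncalled members given next overlapped between populations. Msi2, an RNA-binding protein of stem cells, had 14034, 13294 and 23838 against 40005, 18342 and 29698 (-0.76 ± 0.40, adjusted p = 0.881). Meis2, a TALE homeodomain factor, had 5263, 8637 and 10965 against 14298, 5171 and 14489 (-0.39 ± 0.59, adjusted p = 1.00). Nes, the intermediate filament nestin, had 1880.3, 3190.3 and 1764 against 10743, 11556 and 2912 (-1.89 ± 0.61, adjusted p = 0.501, 0.0624 with the block), and Sox1+FoxA2- replicate 3 lay below Sox1-FoxA2+ replicate 2. For Sox11 the values were 1238, 2416 and 1165 against 5662, 7176 and 2163 (-1.63 ± 0.48, adjusted p = 0.273, 0.0644 with the block), and for Plagl1, a zinc-finger factor of an imprinted gene, 869, 4266 and 2507 against 5176, 18590.3 and 2479.9 (-1.78 ± 1.07, adjusted p = 0.988, 0.108 with the block). In both genes too, Sox1+FoxA2- replicate 3 was the lowest of its group. Msi1, the paralog of Msi2, had 599, 1393 and 316 against 2898, 6170.5 and 1147 and was called with the block (-2.13 ± 0.62, adjusted p = 0.303, 0.0433 with the block). Of 31 genes of neuronal differentiation 24 could be tested, none was called and 20 were negative, with a median of -0.90 (-1.78 without Sox1-FoxA2+ replicate 3).

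Cdh2, N-cadherin, which replaces E-cadherin when neuroectoderm forms, had 2378, 3271 and 3209 against 22230.3, 7326 and 11622 (log2 fold change of -2.20 ± 0.46 (SE), adjusted p = 0.0320, 0.0528 with the block). Boc, a co-receptor for Hedgehog ligands, had 200.1, 45.1 and 456 against 4649, 2658 and 1845 (log2 fold change of -3.76 ± 0.69 (SE), adjusted p = 0.0102). Gli2, a transcription factor at the end of that pathway, had 822, 702 and 1235 against 5492, 2604 and 6088 (log2 fold change of -2.30 ± 0.42 (SE), adjusted p = 0.0102). All 3 genes separated the populations without overlap, Boc with the widest gap. Boc lost its call without Sox1-FoxA2+ replicate 1 or Sox1+FoxA2- replicate 1 (adjusted p from 0.0835 to 0.0906) and Gli2 without Sox1-FoxA2+ replicate 1 or 2 or Sox1+FoxA2- replicate 1 (adjusted p from 0.0507 to 0.112). Cdh2 kept its call only without Sox1+FoxA2- replicate 2 or 3 (adjusted p from 0.0995 to 0.272 otherwise). Zeb2, a repressor of E-cadherin, had 634, 1058 and 1473 against 4801, 4936 and 2636 with no overlap and was not called (-1.97 ± 0.46, adjusted p = 0.0766, 0.0519 with the block). Of the 14 genes of the list for the cadherin switch, all tested, Cdh2 was called and 11 were negative, with a median of -0.34. Of 27 keratin and epithelial junction genes, all tested, none was called and 20 were positive, with a median of 0.62. Krt8, a simple epithelial keratin, had 8346, 10664 and 5093 against 3114, 1792 and 3288 (1.64 ± 0.46, adjusted p = 0.222, 0.0726 with the block). Of 15 floor plate and p3 domain genes 12 could be tested, and none was called, with a median of -0.35.

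Hs3st1 and Hs6st2 encode sulfotransferases of heparan sulfate, the sugar chain of cell surface and basement membrane proteoglycans, for which there was no list. Hs3st1, a 3-O-sulfotransferase, had 4989, 2752 and 5583 against 219, 209.6 and 832 (log2 fold change of 3.54 ± 0.75 (SE), adjusted p = 0.0414). Hs6st2, a 6-O-sulfotransferase, had 1357, 710.2 and 1238 against 4054, 3049.7 and 6344 (log2 fold change of -1.95 ± 0.43 (SE), adjusted p = 0.0461). The first was higher and the second lower in every Sox1-FoxA2+ library than in any Sox1+FoxA2- library. Hs3st1 kept its call only without Sox1-FoxA2+ replicate 2 or Sox1+FoxA2- replicate 3 (adjusted p from 0.105 to 0.351 otherwise). Hs6st2 (adjusted p from 0.0570 to 0.333) lost its call whichever of the 6 libraries was left out.

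Lin28b, which blocks maturation of let-7 microRNAs, had 1158, 1485 and 1433 against 5175, 3571 and 7478 (log2 fold change of -1.91 ± 0.38 (SE), adjusted p = 0.0272). Mest, an imprinted gene of mesoderm and growth, had 4661, 3585 and 4784 against 31063, 21789.9 and 13817 (log2 fold change of -2.36 ± 0.37 (SE), adjusted p = 0.00152). Dach1, a transcriptional co-regulator, had 417, 777 and 1107 against 5600.0, 2032 and 5246 (log2 fold change of -2.43 ± 0.51 (SE), adjusted p = 0.0320). None overlapped between populations, and Mest was the most abundant of the lower genes in Sox1+FoxA2- cells. Nhs, a regulator of actin at cell edges, had 950.3, 557 and 395 against 4896, 1352 and 4784 (log2 fold change of -2.46 ± 0.53 (SE), adjusted p = 0.0405). Mest kept its call whichever of the 6 libraries was left out. Lin28b kept its call only without Sox1+FoxA2- replicate 2 (adjusted p from 0.0664 to 0.253 otherwise), Dach1 only without Sox1-FoxA2+ replicate 3 or Sox1+FoxA2- replicate 2 (adjusted p from 0.0648 to 0.283 otherwise) and Nhs only without Sox1+FoxA2- replicate 2 (adjusted p from 0.0547 to 0.212 otherwise).

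Genes with 0 counts in all 3 Sox1-FoxA2+ libraries were Wnt8a, Sp110 and Gm12794. Wnt8a, a Wnt ligand of the gastrula, had 684, 338 and 652 normalized counts in Sox1+FoxA2- cells and was at least 244-fold lower in Sox1-FoxA2+ cells (adjusted p = 0.0471, 0.0517 with the block), taking 3 counts per library as the floor. Sp110, a nuclear body protein, had 35.5, 216 and 249 and was at least 73.1-fold lower (adjusted p = 0.0460). Gm12794, a predicted gene, had 133, 28.8 and 221 and was at least 55.8-fold lower (adjusted p = 0.0484). The lower bounds cover counting error only, and reads of the amplified cDNA are not independent molecules. Sp110 kept its call only without Sox1+FoxA2- replicate 1 (adjusted p from 0.0752 to 0.315 otherwise) and Gm12794 only without Sox1+FoxA2- replicate 2 (adjusted p from 0.0594 to 0.272 otherwise). Wnt8a (adjusted p from 0.0679 to 0.272) lost its call whichever of the 6 libraries was left out. Of 50 Wnt pathway genes 49 could be tested, and Wnt8a was the called one, while 31 were negative with a median of -0.58 (-1.07 without Sox1-FoxA2+ replicate 3). Sfrp2, a secreted Wnt inhibitor, had 44.5, 511 and 111 against 1529.5, 4057 and 637 (-3.20 ± 1.25, adjusted p = 0.872, 0.0565 with the block).

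RA itself was present in all cultures, and genes of the response to it were uncalled. Cyp26a1, the main enzyme that degrades RA, had 5279.6, 8454 and 7809 against 215, 26.9 and 522 (4.98 ± 1.21, adjusted p = 0.267, 0.132 with the block), with no overlap. Its paralog Cyp26b1 had 572, 1878 and 2467 against 256, 0 and 31.7 (4.03 ± 1.80, adjusted p = 0.881), and Cyp26c1 had 217, 109 and 259 against 0, 0 and 17.1 (5.34 ± 3.17, adjusted p = 0.934). Values of the 3 enzymes were above those of Sox1+FoxA2- cells in every Sox1-FoxA2+ library. Crabp2, which carries RA to its nuclear receptors, had 615, 963 and 862 against 7947, 15266 and 4806 (-3.52 ± 0.71, adjusted p = 0.0584, 0.0498 with the block). Crabp1, which holds RA in the cytoplasm, had 369, 1265 and 362 against 9802, 5598 and 1740.4 (-3.10 ± 1.06, adjusted p = 0.714, 0.0214 with the block). Both binding proteins were below Sox1+FoxA2- cells in every library and were called with the block but not without it. Of 26 listed genes 25 could be tested, 10 were positive and 15 negative, with a median of -0.21. Of 39 Hox genes 12 lie within other genes and 18 could be tested, of which none was called and 17 were negative, with a median of -1.38. Hoxb8 had 120.4, 514 and 316 against 452, 2413 and 1191 (-2.03 ± 1.30, adjusted p = 1.00).

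Lists for other cell types and pathways had few calls, and each median is to be read beside the -0.10 of all genes tested. No gene was called among 19 of the Notch pathway (median -0.63), 24 of FGF signalling (-0.59), 37 of BMP and Nodal signalling (-0.14), 28 of the cell cycle (-0.29), 8 of mesendoderm (-1.22), 12 of node and notochord (0.48), 17 of neural crest and mesenchyme (-1.40), 12 of gut endoderm (1.34) and 11 of anterior visceral endoderm (-1.06). The last median turned to 1.37 without Sox1+FoxA2- replicate 1. Nor was any called among 12 genes of smooth muscle and serum response (0.12), 12 of trophoblast (-1.26), 6 of PDGF signalling (0.15), 13 of the immediate early response (0.37) and 13 of endothelium and blood (0.84, but -0.30 when Sox1-FoxA2+ replicate 1 was left out and 1.77 when Sox1+FoxA2- replicate 1 was). Of 19 genes of lipid and cholesterol synthesis Insig1 was called, with a median of 0.27. In FGF signalling, the ligand Fgf10 had 5526, 1542 and 6051 against 259, 0 and 862 (3.71 ± 1.51, adjusted p = 0.881) and the receptor Fgfr1 had 1424, 1820.0 and 1517 against 6419, 2448 and 2995 (-1.30 ± 0.44, adjusted p = 0.499), each without overlap and in opposite directions. Of 28 pluripotency genes 19 were negative, with a median of -0.36, and Klf5 and Lin28b were called in opposite directions. The pluripotency factor Nanog had 25, 149.9 and 101 against 381, 251 and 400.3 (-1.83 ± 0.85, adjusted p = 0.881), while Dnmt3b, a DNA methyltransferase of primed cells, had 19269.6, 8485 and 4644 against 3915, 2083 and 3885 (1.78 ± 0.51, adjusted p = 0.276, 0.0815 with the block). The plot of fold changes by list shows every tested member.

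**Figure D2:**
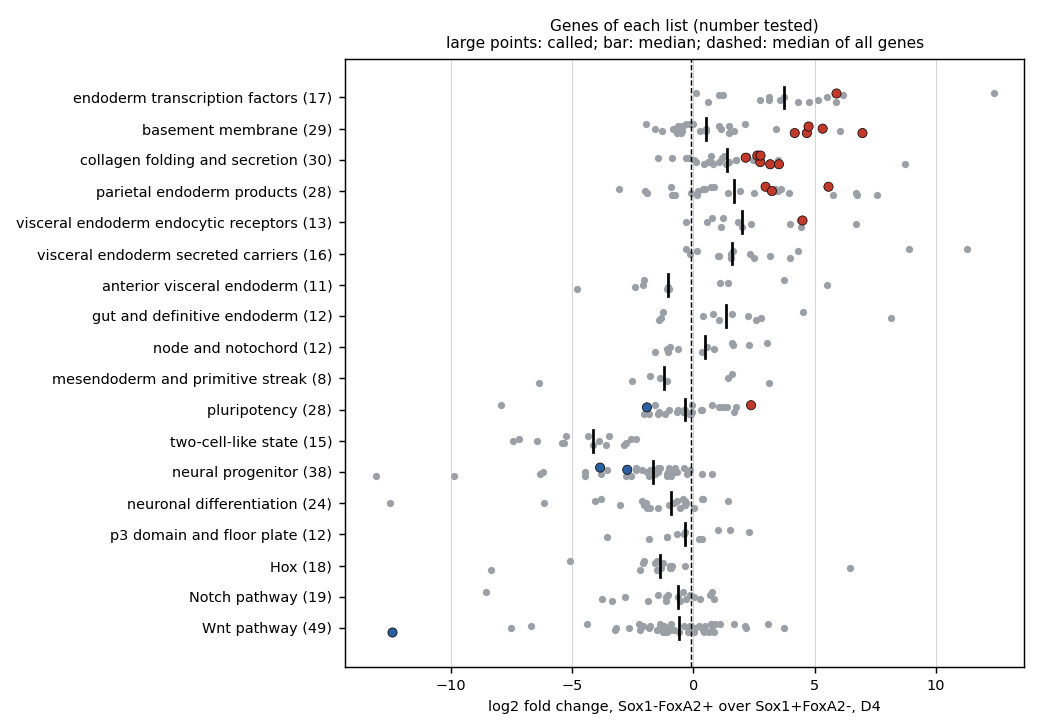
Log2 fold changes of Sox1-FoxA2+ against Sox1+FoxA2- cells at D4 for the tested members of selected gene lists, 1 point per gene, with the median of each list as a bar, large coloured points for called genes and a dashed line at the median of all genes tested (-0.10). All 17 endoderm transcription factors lie above 0, Foxa2 of the sort gate among them, and 36 of 38 neural progenitor genes lie below it.

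Markers of a two-cell-like state, a rare state of ESC cultures, were also looked up. All 15 tested genes were negative, with a median of -4.14 (-5.87 without Sox1-FoxA2+ replicate 1), and none was called. Many of them, the Zscan4 genes included, belong to families of near-identical copies among which reads cannot be assigned with certainty. Zscan4c had 7.41, 1.13 and 0 against 526, 513 and 399 (-7.44 ± 2.09, adjusted p = 0.482), with no overlap, and Zscan4d had 18.5, 508 and 7.94 against 1124, 431 and 2102 (-2.58 ± 1.88, adjusted p = 1.00), where Sox1-FoxA2+ replicate 2 lay within the range of the other group. The list took at most 0.00283% of counts in Sox1-FoxA2+ libraries and from 0.0101% to 0.0175% in Sox1+FoxA2- libraries, and up to 0.379% in 1 library of the other D4 populations. The part of such cells in the differences above was not tested.

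The other D4 populations place the called genes. These were chosen by the 2 single-positive populations of the same fit, which partly sets their ranks among the 4 populations. All 47 higher genes had their highest mean in Sox1-FoxA2+ cells among the 4 populations, and for 44 the 3 Sox1-FoxA2+ libraries lay above all 9 others. Lama1 had 1498, 918 and 1840.0 in Sox1-FoxA2- cells and 5589.7, 1544 and 4023 in Sox1+FoxA2+ cells. For 40 of the 47, the Sox1+FoxA2+ mean exceeded that of Sox1+FoxA2- cells, and for 28 the Sox1-FoxA2- mean did so. As the 47 were called for low values in these Sox1+FoxA2- libraries, both counts are partly set by that choice. Of the 14 lower genes, 13 had their lowest mean in Sox1-FoxA2+ cells, 12 had their highest mean in Sox1+FoxA2- cells, and for 9 the 3 Sox1-FoxA2+ libraries lay below all 9 others. Pax6 had 290.0, 1197 and 643 in Sox1-FoxA2- cells and 332, 1882 and 793 in Sox1+FoxA2+ cells. The comparisons of these populations share libraries and are given side by side. Against Sox1-FoxA2- cells, where 0.279% of all genes were higher and 0.0567% lower in Sox1-FoxA2+ cells, 35 of the 47 and 3 of the 14 were called, with median log2 fold changes of 2.98 and -1.59. Against Sox1+FoxA2+ cells, where the shares were 0.414% and 0.0610%, 32 and 2 were called, with medians of 2.74 and -1.49. For Sox1+FoxA2- cells edgeR called 0 of all genes (0%) against either population, with an unadjusted p under 0.05 for 1150 genes against Sox1-FoxA2- and 1565 against Sox1+FoxA2+ cells, and DESeq2 was not run on these contrasts. The heat map of called genes shows all 12 libraries.

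**Figure D3:**
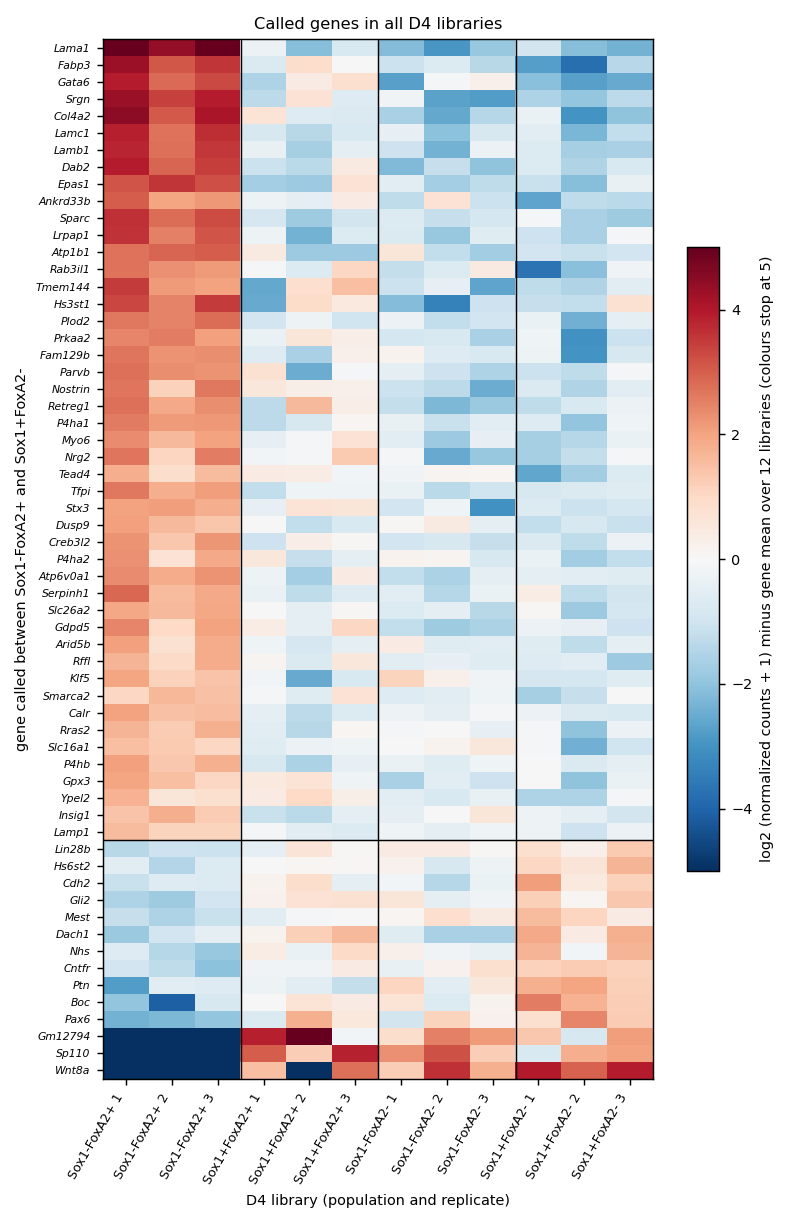
Normalized counts of the 61 called genes in the 12 sorted D4 libraries, as log2(normalized count + 1) minus the mean of each gene (colour, which stops at 5 on either side), with genes in rows ordered by log2 fold change and libraries in columns grouped by population. The 47 higher genes stand out in the 3 Sox1-FoxA2+ columns, and the 14 lower genes are at their lowest there for 13 of 14 by population mean. The genes were chosen by the columns of the single-positive populations.

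The same contrast was then read in libraries that the D4 comparison did not use. At D2, 45 of the 47 higher genes were positive, with a median of 0.72, but none of the 61 was called, and 1 of all 20369 genes tested was (0.00491%). At D6, where 1.00% of all genes were higher and 0.318% lower, all 47 were positive and 45 were called, with a median of 3.26 (319 calls over all genes, 517 with the block). The exceptions were Nostrin (2.87 ± 0.97, adjusted p = 0.273) and Tead4 (1.43 ± 0.42, adjusted p = 0.0981). In D4 progeny, where 1.44% were higher and 0.527% lower, all 47 were positive and 38 were called, with a median of 2.46 (408 calls over all genes, 885 with the block). The 9 not called were Rab3il1, Arid5b, Klf5, Calr, Rras2, Slc16a1, Gpx3, Insig1 and Lamp1. In D6 progeny, where 3.59% were higher and 3.32% lower, 46 were positive and called, with a median of 2.66, and Arid5b was the exception (-0.16 ± 0.25, adjusted p = 0.857). In all, 36 of the 47 were called in D6 cells and in both progeny.

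Among the lower genes, all 14 were negative at D6 with a median of -2.78, and 5 were called, namely Pax6, Boc, Ptn, Cntfr and Cdh2. In D4 progeny all 14 were negative with a median of -1.40, and Lin28b, Cdh2, Mest, Cntfr and Ptn were called. In D6 progeny the 13 that could be tested were negative with a median of -2.44, and Gli2, Mest, Dach1, Cntfr, Ptn and Pax6 were called. Cntfr and Ptn were called in all 3. Ptn, which lost its D4 call with the block, had a log2 fold change of -4.88 ± 1.02, adjusted p = 0.0493 at D6, and Pax6 had -4.05 ± 1.03, adjusted p = 0.0399. Among uncalled genes, Col4a1 was called in D6 cells (7.77 ± 1.24, adjusted p = 0.0192), in their progeny counterparts of D4 (3.69 ± 0.36, adjusted p = 1.24e-05) and of D6 (3.53 ± 0.48, adjusted p = 7.17e-04). Gata4 was called in the same 3 comparisons, with 7.18 ± 0.98, adjusted p = 0.00265 at D6, and so was Cubn, with 5.83 ± 0.82, adjusted p = 0.00271. The median over all genes tested was -0.02 at D2, -0.30 at D6, and -0.02 and -0.04 in the progeny of D4 and D6.

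**Figure D4:**
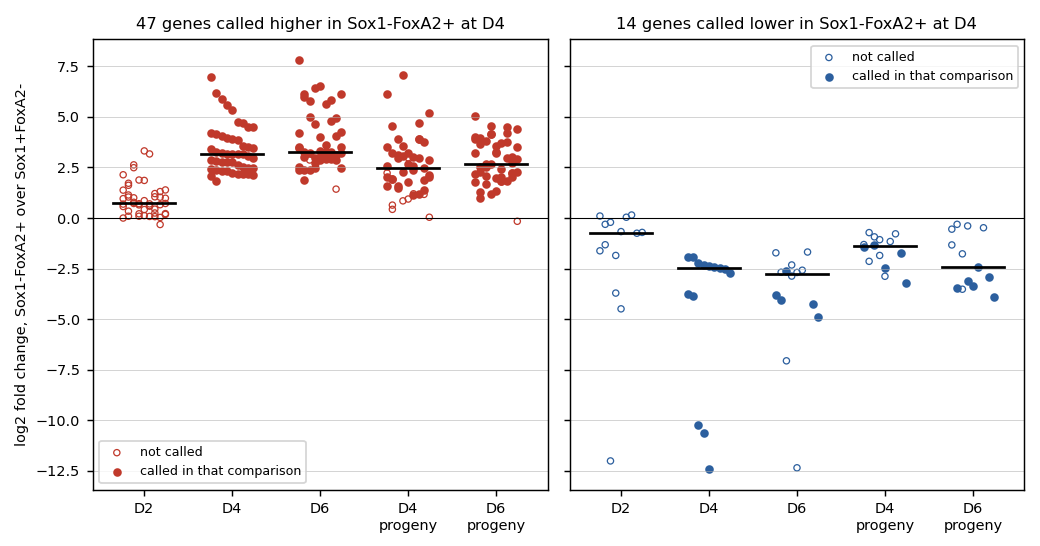
Log2 fold changes of Sox1-FoxA2+ against Sox1+FoxA2- cells (vertical axis) in D2, D4, D6, D4 progeny and D6 progeny libraries (horizontal axis) for the 47 higher (left) and 14 lower genes (right), 1 point per gene, filled where called in that comparison, with the median as a bar. No point is filled at D2, where the medians are 0.72 and -0.73, and 45 of the 47 and 5 of the 14 are filled at D6.

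Whether the difference between the populations itself changed with time was tested over the 36 sorted libraries of D2, D4 and D6. The block of this test tied same-numbered libraries across the days, although the numbers did not pair the libraries at D2. From D2 to D4 it changed for 3 of 28080 genes (0.0107%), and 2 of them were among the genes above, Calr and Plod2. From D4 to D6 it changed for 1 gene (0.00356%), which was not among them. Calr had 14783, 15099 and 19291 against 14019.7, 11817 and 21134 at D2, with overlapping libraries, and its difference at D4 was larger by 2.24 ± 0.43 (SE) on the log2 scale (adjusted p = 0.0377, 0.0154 with the block). Plod2 had 2668, 2719 and 1674 against 1629.9, 2872 and 2557 at D2, and its difference grew by 3.51 ± 0.64 (adjusted p = 0.0377, 0.0739 with the block). Libraries of both genes of the ER overlapped at D2 and did not at D4. For the laminin, collagen and endoderm factor genes named above, no such change passed the test.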

How the data were processed

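Libraries were made from RNA of sorted or replated cells with the kit SMART-Seq Stranded. The authors aligned the reads with STAR, sorted them with SAMtools and used featureCounts to count reads over GENCODE M21 genes (GRCm38), and they deposited raw counts of 57 libraries without normalization (tool versions and the strand setting are not given in the sources used here). Another 92 lines name no gene and hold 0 counts. Of the nonzero counts 80.6% were even, no libraries were identical, and the count table gave no reads to nearly all genes that lie within another gene.

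Counts were tested with edgeR 4.0.16 (TMM, filterByExpr with a minimum count of 10 and total of 15, robust glmQLFit, glmQLFTest, prior count 0.125) and limma 3.58.1 (R 4.3.3) over the 12 D4 libraries in 1 fit, with Benjamini-Hochberg adjustment and a threshold of 0.05. All tests are two-sided. Each SE was derived from the test, as the absolute log2 fold change divided by the square root of the quasi-likelihood F statistic. For a single gene, exact permutation of 3 against 3 libraries cannot go below p = 0.1. Other days and progeny were fitted in the same way, and changes between days over 36 libraries. Normalized counts were raw counts divided by DESeq2 1.42.0 size factors over all libraries. Same-numbered libraries of the 2 populations deviated together (correlations of 0.224, 0.475 and 0.517 over 5000 genes at D4, 0.167, 0.245 and 0.18 at D6, and 0.605, 0.509 and 0.329 in D4 progeny), which was taken as pairing where all 3 were over 0.1, so values with the replicate block are given where they change a call. At D2 and in D6 progeny this did not hold, so values with the block there are not read as paired. The same goes for changes between days, where the block tied the same numbers across days.

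The population, the comparisons and the 32 gene lists were chosen with earlier results of these data known. Named are Foxa2 and Sox1, called genes (with library values for the 10 highest and 10 lowest fold changes and for called list members) and abundant list members. Library values of other called genes, and other uncalled list members, were chosen after their values were seen. Alternatives were DESeq2's Wald test, RLE size factors, no filter, no robust estimation (added after seeing the data), the 6 libraries alone, all 57 libraries, the block, and each library left out. Figures and tables used Python 3.11.15, pandas 2.3.3, numpy 2.4.6 and matplotlib 3.10.9.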

Additional observations from a re-analysis of the deposited data

Results flagged for a closer look

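Over the 36 sorted libraries of D2, D4 and D6, the difference between Sox1-FoxA2+ and Sox1+FoxA2- cells differed between days for 4 genes by a test of the difference itself, the interaction term of edgeR's quasi-likelihood fit. Between D2 and D4 it grew by 2.24 on the log2 scale for Calr and by 3.51 for Plod2, for which values are given above. Nubp1 and Dusp27 lie outside the rule for named genes and were chosen after their values were seen. Their values with the block carry the limit at D2 given above.

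Nubp1, a factor of iron-sulfur cluster assembly, had 1445, 599 and 1414 normalized counts in Sox1-FoxA2+ and 3142, 2440.5 and 3971 in Sox1+FoxA2- libraries at D2, where the Sox1-FoxA2+ libraries lay below the others. At D4 it had 1354, 1695 and 1297 against 269, 478 and 467, with the order turned round. The difference moved by 3.40 ± 0.67 (SE) on the log2 scale (adjusted p = 0.0384, 0.0482 with the replicate block). At D6 the libraries overlapped, with 1841, 2875 and 1478 against 1476, 778 and 2054.

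Dusp27, an atypical phosphatase gene, had 129.7, 1068 and 487 against 1062, 1290.2 and 925 at D4, with overlap, and 12.2, 0 and 20 against 1224, 793 and 1551 at D6. Its difference moved by -5.83 ± 1.04 (SE) between D4 and D6 (adjusted p = 0.0235, 0.0449 with the block).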

How the results depend on the processing

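Of the 61 genes called at D4, each kept its direction under every alternative, and DESeq2's Wald test and the fit without a filter called all 61. Still called were 58 with the replicate block, 53 with RLE size factors, 53 in the fit of the 6 libraries alone, 41 with all 57 libraries and 40 without robust estimation. The number called in all was 515 with DESeq2 (278 higher, 237 lower), 251 without a filter (162 and 89), 144 with the block (118 and 26), 105 with the 6 libraries alone (92 and 13), 102 with all 57 libraries (93 and 9), 62 with RLE size factors (50 and 12) and 52 without robust estimation (41 and 11), so that the number and the split of calls depend on the test. Without 1 library it ranged from 28 to 65, with 25 to 62 higher (25 without Sox1+FoxA2- replicate 2, 26 without Sox1-FoxA2+ replicate 1) and 2 to 12 lower (3 without Sox1+FoxA2- replicate 1, and 2, 3 and 5 without Sox1-FoxA2+ replicates 1, 2 and 3 in turn). Of 43 named genes that were not called, DESeq2 called 22, the fit without a filter 28, the block 11, the 6 libraries alone 9, no robust estimation 8, all 57 libraries 7 and RLE size factors 1.

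At D6, 319 genes were called, 1573 with DESeq2, 517 with the block and from 179 to 501 without 1 library (212, 179 and 180 without Sox1+FoxA2- replicates 1, 2 and 3 in turn, and 501 without Sox1-FoxA2+ replicate 3). At D2 edgeR called 1, DESeq2 219 and the block, whose numbers do not pair the libraries there, 3, and leaving out 1 library gave 0 to 1, with 0 for Sox1+FoxA2- replicates 1 and 3 and Sox1-FoxA2+ replicates 2 and 3. In D4 progeny 408 were called, 816 with DESeq2, 885 with the block and from 241 to 443 without 1 library (252 and 241 without Sox1-FoxA2+ replicates 1 and 2 in turn). In D6 progeny 1456 were called, 2290 with DESeq2, 1598 with the block and from 859 to 1705 without 1 library (859 and 960 without Sox1+FoxA2- replicates 1 and 2 in turn). The replicate numbers do not pair the libraries of D6 progeny either. Between D2 and D4 the difference changed for 3 genes, and for 2 with the block.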
